A study of Mus musculus with 6 samples.

Results

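Chemokine transcripts were examined in whole adult brain as a set of 10 ligand genes, picked by symbol from the 37310 genes of the count table. They comprised the interferon-inducible *Cxcl9*, *Cxcl10* and *Ccl5*, the inflammatory *Ccl2*, *Ccl12*, *Ccl11* and *Cxcl1*, and the homeostatic *Cxcl12*, *Cxcl14* and *Cx3cl1*. All 10 symbols were found. Whole brain RNA came from male C57BL/6 mice aged 12 weeks, with 3 libraries per genotype, each from its own animal. One genotype was homozygous for *Adar1* E861A, a point mutation that leaves the ADAR1 protein without RNA editing activity, and lacked *Ifih1* (*Adar1* E861A/E861A *Ifih1*-/-). The control was *Adar1*+/+ *Ifih1*-/-, referred to here as wild type for *Adar1* only. Both alleles are carried in all tissues rather than driven in 1 cell type. Both genotypes lacked MDA5, the cytoplasmic sensor of double-stranded RNA that *Ifih1* encodes, and brains with intact MDA5 were not analysed here. The comparison asks whether chemokine transcripts differ when editing by ADAR1 is lost in the absence of this sensor. In RNA from whole tissue, fewer cells of a type and less RNA per cell cannot be told apart.

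Chemokines are small secreted proteins that bind G protein-coupled receptors and draw leukocytes along a gradient. Interferons switch on *Cxcl9*, *Cxcl10* and *Ccl5*, which in an inflamed brain are often made by astrocytes and microglia. A different class is made without any stimulus. Neurons display CX3CL1 (fractalkine) to the CX3CR1 receptor of microglia, vessels and meninges release CXCL12, which guides cells carrying CXCR4, and CXCL14 is a product of many cortical and hippocampal interneurons.

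The libraries held 26853488 to 38076753 counts, so that 1 count was worth 0.0263 to 0.0372 CPM (a count scaled to the total of its column). The label of neither targeted gene could be checked from its transcript, since a point mutation need not alter the level of *Adar* (log2 fold change 0.10 ± 0.11 SE, adjusted p = 0.822) and both genotypes are knockouts for *Ifih1*, which had 38 to 56 counts in each library. *Adar1* E861A replicate 1 stood apart by its pituitary hormone transcripts, which summed to 441 CPM against 1.30 to 3.33 CPM in the other libraries. Its omission changed no call or direction among the ligands, and the values without it are given for each rare ligand and for *Cxcl12*. The genotype difference was tested gene by gene with edgeR (quasi-likelihood), with p-values adjusted over all genes tested, and a gene with an adjusted p under 0.05 is referred to as called. The abundant ligands were read from a fit of 13649 genes with at least 2 CPM in all 3 libraries of a genotype. The rare ligands were read from a fit of 23715 genes with at least 10 counts summed over the 6 libraries, a filter that does not look at genotype.

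Among the ligands only *Cxcl10* passed the test. Of the 10 ligands, 3 entered the first fit, where 0 were called, 1 (*Cxcl12*) had an unadjusted p under 0.05 and 1 was called when no filter was used. All 10 entered the second fit, where 1 was called and 5 had an unadjusted p under 0.05. The share of all genes with an unadjusted p under 0.05 was not computed. No excess is therefore read from such counts, here or in the lists below. Over all genes the called shares were 0.506% and 0.46%, with 0.358% called higher in *Adar1* E861A in the second fit. In that fit 8 of the 10 ligands had a positive log2 fold change, and their median was 1.06 against 0.00166 for all genes tested. Both values rest partly on *Cxcl9*, *Ccl2*, *Ccl11* and *Cxcl1*, which had 10 to 13 counts in all. These ligands and *Cxcl10* had only 2 to 4 counts in wild type and so reached the filter through *Adar1* E861A. No shift of the set is read from the direction count or the median. In 3 ligands, *Cxcl9*, *Cxcl10* and *Ccl12*, every *Adar1* E861A library lay above every wild-type library, and 0 ligands showed the opposite. Over all genes of that fit, 7.18% were separated upward and 5.77% downward, and over the fit of 13649 genes 6.98% and 6.81%. With 3 against 3 libraries, an exact permutation test cannot give a p-value below 0.1.

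**Figure D1:**
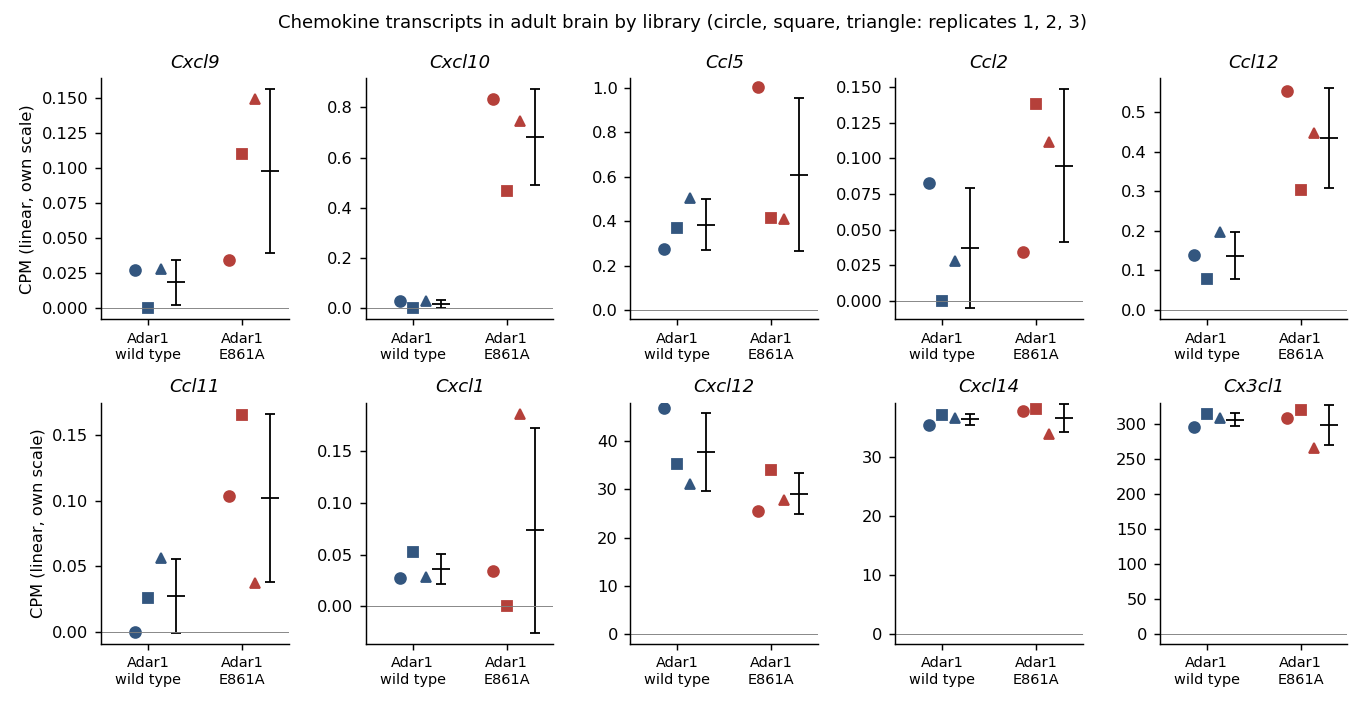
CPM of each chemokine ligand in the 3 *Adar1* wild-type (blue) and 3 *Adar1* E861A (red) libraries, each panel on its own linear scale, with symbols for replicates 1 to 3 and bars for the mean ± SD. *Cxcl10* is at or near 0 in wild type and between 0.469 and 0.831 CPM in *Adar1* E861A, whereas *Cxcl14* and *Cx3cl1* overlap between genotypes.

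*Cxcl10* encodes a ligand of CXCR3 that attracts activated T cells and NK cells. It held 24, 17 and 20 counts in *Adar1* E861A replicates 1 to 3 (0.831, 0.469 and 0.745 CPM). In wild type it held 1, 0 and 1 counts (0.0276, 0 and 0.0280 CPM). The genotypes did not overlap, and the lowest *Adar1* E861A library lay well above the highest wild-type one. Mean levels were 0.682 ± 0.189 CPM and 0.0186 ± 0.0161 CPM (SD, n = 3), and all 3 *Adar1* E861A libraries were higher. The pooled counts, 61 against 2, gave a ratio of 36.4 with an exact conditional 95% interval of 9.67 to 308, which covers counting error only. The fitted log2 fold change was 4.94 ± 0.60 (SE), with a 95% interval of 3.67 to 6.20 and an adjusted p of 0.000136. With so few wild-type counts the fitted size depends on the prior count of the fit. Across 14 alternative settings the adjusted p of *Cxcl10* ranged from 6.64e-13 to 0.00334, and without *Adar1* E861A replicate 1 it was 0.00097 (log2 fold change 4.79).

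*Cxcl10* (ENSMUSG00000034855) lies on the minus strand at chr5:92775664-92777915 of the NCBIM37 assembly, between *Cxcl9* and *Cxcl11*. Its exons share 133 bases with an exon of *Art3* on the opposite strand. *Art3* had 47, 76 and 52 counts in *Adar1* E861A and 75, 71 and 69 in wild type, so its counts did not move with those of *Cxcl10* (log2 fold change -0.05, adjusted p = 0.971). The 250 bases upstream of *Cxcl10* are shown because it was the ligand called, with the sequence taken from RefSeq on GRCm38.p6 (chr5:92348890-92349139, minus strand). Capitals mark an interferon-stimulated response element (ISRE) and matches to the NF-kB motif.
*Cxcl10* promoter: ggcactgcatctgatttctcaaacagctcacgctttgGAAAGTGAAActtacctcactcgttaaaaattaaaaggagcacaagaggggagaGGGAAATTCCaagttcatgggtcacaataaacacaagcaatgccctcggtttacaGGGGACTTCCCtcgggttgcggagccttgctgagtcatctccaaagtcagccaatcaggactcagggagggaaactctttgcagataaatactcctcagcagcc

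The ISRE was searched as GAAANNGAAA, the gamma-activated site (GAS) as TTCNNNGAA and the NF-kB site by its usual consensus, all on both strands. In *Cxcl10* the ISRE started 213 bases and the NF-kB matches 159 and 104 bases before the annotated start, the last comprising overlapping matches. Promoters were found for 7 of the 10 ligands, not for *Ccl5*, *Ccl2* and *Ccl11*. Among these 7, an ISRE was present in *Cxcl10* and *Cxcl14*, a GAS in *Cxcl14* and an NF-kB match in *Cxcl10* and *Cxcl1*. Across 32851 promoters of the same length, 2.98% held the ISRE, 7.02% the GAS and 7.25% the NF-kB motif. The ISRE letters of *Cxcl14*, a ligand that was not called, are shown for comparison (GRCm38.p6, chr13:56296704-56296733, minus strand), with the ISRE in capitals.
*Cxcl14* window: gtgtccacagGAAACAGAAAagcagcaccc

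The match in *Cxcl14* started 172 bases before its annotated start, so the letters were present upstream of a called ligand and of one that was not called. A match describes the letters of the window and was not tested as a binding site.

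*Cxcl9*, the other CXCR3 ligand of the set and a gene most responsive to interferon gamma, was close to the detection limit. It had 1, 4 and 4 counts in *Adar1* E861A (0.0346, 0.110 and 0.149 CPM) and 1, 0 and 1 counts in wild type (0.0276, 0 and 0.0280 CPM). The genotypes did not overlap in CPM, but *Adar1* E861A replicate 1 and wild-type replicates 1 and 3 each held a single count. The pooled ratio was 5.38, with an exact 95% interval of 1.11 to 51.1. The fitted log2 fold change of 2.21 ± 0.93 (SE) was not called (adjusted p = 0.573). Without *Adar1* E861A replicate 1 it was 2.59 (adjusted p = 0.577). *Cxcl9* lies 18558 bases from *Cxcl10* on the same strand, and *Cxcl11*, the third gene of this cluster, had 0, 2 and 3 counts against 1, 0 and 1 and was below both filters.

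*Ccl5* (RANTES) attracts T cells and monocytes, in part through CCR1. It had 29, 15 and 11 counts in *Adar1* E861A (1.00, 0.413 and 0.410 CPM) against 10, 14 and 18 in wild type (0.276, 0.368 and 0.504 CPM). Only *Adar1* E861A replicate 1 lay above the wild-type range, and that is the library with the pituitary transcripts. The log2 fold change was 0.64 ± 0.38 (SE), with a 95% interval of -0.16 to 1.44 and an adjusted p of 0.732. Without *Adar1* E861A replicate 1 it was 0.12 (adjusted p = 0.972).

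The inflammatory ligands form a different functional class, induced mainly through NF-kB and directed at monocytes, eosinophils and neutrophils. *Ccl12* is a mouse ligand of CCR2 on monocytes. It had 16, 11 and 12 counts in *Adar1* E861A (0.554, 0.303 and 0.447 CPM) and 5, 3 and 7 counts in wild type (0.138, 0.0788 and 0.196 CPM). Each *Adar1* E861A library exceeded each wild-type library. Means were 0.435 ± 0.126 CPM and 0.138 ± 0.0586 CPM (SD, n = 3; exact permutation p = 0.1). The log2 fold change of 1.61 ± 0.44 (SE) had a 95% interval of 0.68 to 2.54 that left out 0, yet after adjustment over 23715 genes it was not called (adjusted p = 0.196). The likelihood ratio test of edgeR called it (adjusted p = 0.0380), and over 14 alternatives the adjusted p ranged from there to 0.623. Without *Adar1* E861A replicate 1 the log2 fold change was 1.41 (adjusted p = 0.561).

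*Ccl2* (MCP-1), which recruits monocytes through CCR2, lies in the same cluster as *Ccl12* on chromosome 11 but was rarer. It had 1, 5 and 3 counts in *Adar1* E861A and 3, 0 and 1 in wild type. The libraries overlapped, with wild-type replicate 1 above *Adar1* E861A replicate 1. The pooled ratio of 2.69 had an exact 95% interval of 0.750 to 11.9, which includes equal levels. The fitted log2 fold change was 1.33 ± 0.87 (SE) with an adjusted p of 0.762. Without wild-type replicate 1 it was 2.53 (adjusted p = 0.705), without wild-type replicate 2 it was 0.78 (adjusted p = 0.925) and without *Adar1* E861A replicate 1 it was 1.71 (adjusted p = 0.759).

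*Ccl11* (eotaxin), a CCR3 ligand that attracts eosinophils, had 3, 6 and 1 counts in *Adar1* E861A and 0, 1 and 2 in wild type. *Adar1* E861A replicate 3 fell below wild-type replicate 3, so the genotypes overlapped. Its pooled ratio was 3.98 (exact 95% interval 1.03 to 22.5), and the fitted difference was not called (log2 fold change 1.84 ± 0.88 SE, adjusted p = 0.644). Without wild-type replicate 3 it was 2.69 (adjusted p = 0.694), without *Adar1* E861A replicate 2 it was 1.26 (adjusted p = 0.708) and without *Adar1* E861A replicate 1 it was 1.89 (adjusted p = 0.765).

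*Ccl2*, *Ccl11* and *Ccl12* belong to a cluster of 6 chemokine genes on chromosome 11, with *Ccl7*, *Ccl8* and *Ccl1*. The neighbours are named for their position. *Ccl7*, another CCR2 ligand, had 2, 5 and 2 counts against 2, 1 and 2, and its log2 fold change of 1.03 was not called (adjusted p = 0.775). *Ccl8* and *Ccl1* were below both filters, with 2, 1 and 1 counts against 0, 0 and 1 for *Ccl8* and a single count in all for *Ccl1*. *Ccl5* sits farther along the chromosome in a separate cluster of 5 genes, where *Ccl3*, a ligand of CCR1, had 5, 4 and 3 counts against 3, 3 and 6 (adjusted p = 0.951).

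*Cxcl1*, which draws neutrophils through CXCR2, had 1, 0 and 5 counts in *Adar1* E861A and 1, 2 and 1 in wild type. Most of its *Adar1* E861A counts came from replicate 3. The log2 fold change was 0.79 ± 1.01 (SE; adjusted p = 0.891) and turned to -1.08 without that library (adjusted p = 0.982). Without *Adar1* E861A replicate 1 it was 1.08 (adjusted p = 0.883). The summed level of 7 neutrophil markers was also highest there, at 10.7 CPM against 3.74 and 2.09 CPM in the other *Adar1* E861A libraries and 1.39 to 2.55 CPM in wild type. Their part in the *Cxcl1* counts was not tested. Of these markers 6 were in the second fit and 0 were called by edgeR, with 4 at an unadjusted p under 0.05. With the replicate number as a block 3 were called. All 6 had a positive log2 fold change, with a median of 1.51. *Ly6g*, which defines mature neutrophils, had 1 count in all, in *Adar1* E861A replicate 3.

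**Figure D2:**
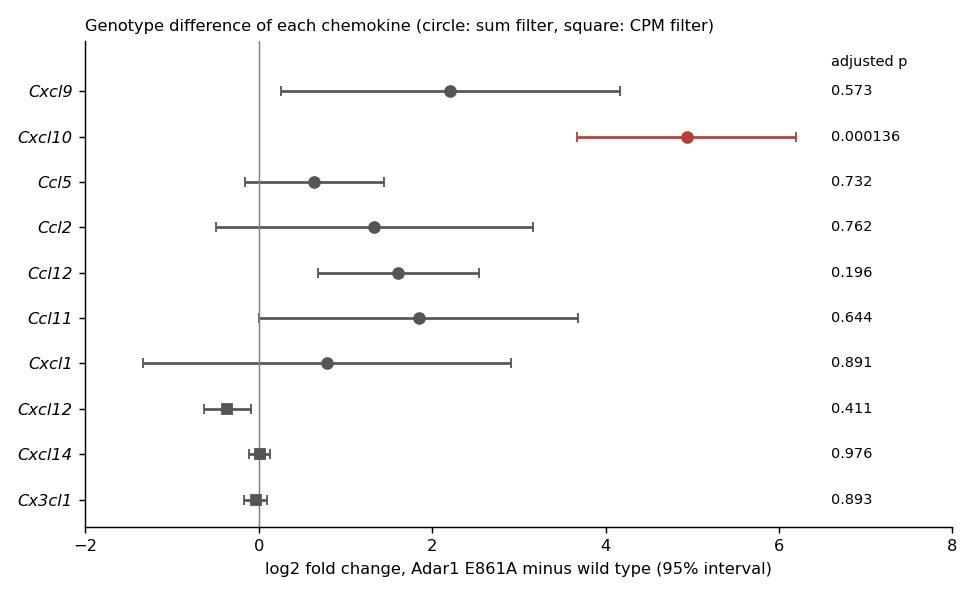
Fitted log2 fold change (*Adar1* E861A minus wild type) of each ligand with its 95% interval, circles from the fit of 23715 genes and squares from the fit of 13649 genes, and the adjusted p beside each. *Cxcl10* (red) is the ligand with an adjusted p under 0.05, and the intervals of *Cxcl14* and *Cx3cl1* are narrow around 0.

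The 7 interferon-inducible and inflammatory ligands together reached 2.60, 1.60 and 2.09 CPM in *Adar1* E861A and 0.580, 0.525 and 0.868 CPM in wild type. The genotypes did not overlap. A large part of the difference was *Cxcl10* itself (mean 0.682 against 0.0186 CPM), and *Ccl5* added 1.00 CPM in *Adar1* E861A replicate 1. No test is given for this sum. These ligands remained a small part of the chemokine RNA in both genotypes, as *Cx3cl1* alone made up 72.1% to 75.9% of the CPM of 36 chemokine ligands in each library.

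Among the homeostatic ligands, *Cx3cl1* and *Cxcl14* differed by less than the spread between replicates, and *Cxcl12* was lower in *Adar1* E861A without passing the test. *Cx3cl1* had 309, 320 and 266 CPM in *Adar1* E861A and 296, 314 and 309 CPM in wild type. The libraries overlapped, with *Adar1* E861A replicate 3 the lowest of all. The log2 fold change was -0.04 ± 0.06 (SE; adjusted p = 0.893), and its 95% interval allowed a fold between 0.890 and 1.07. Summed markers of neurons, the main source of *Cx3cl1*, were 5686 to 5797 CPM in *Adar1* E861A and 5710 to 5819 CPM in wild type. The microglial receptor *Cx3cr1* had 23.9, 27.2 and 25.8 CPM against 27.8, 28.2 and 25.2 CPM (log2 fold change -0.07 ± 0.07 SE, adjusted p = 0.797). The 12 microglia markers summed to 193 to 201 CPM and 194 to 203 CPM in these genotypes. The proteases *Adam10*, *Adam17* and *Ctss*, which can release CX3CL1 from the cell surface, had adjusted p-values of 0.860, 0.801 and 0.932.

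*Cxcl14* is made constitutively by interneurons and other brain cells. It had 37.8, 38.1 and 33.9 CPM in *Adar1* E861A and 35.5, 37.2 and 36.6 CPM in wild type. The wild-type values fell within the *Adar1* E861A range. The log2 fold change of 0.01 ± 0.06 (SE; adjusted p = 0.976) allowed a fold between 0.924 and 1.10. Of 10 interneuron markers 0 were called by edgeR in either fit, with 4 at an unadjusted p under 0.05 and 1 called with the replicate block, and their summed level was 1225 to 1266 CPM in *Adar1* E861A and 1246 to 1337 CPM in wild type.

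*Cxcl12* (SDF-1) retains cells that carry CXCR4 and is produced in brain by vessels, meninges and some neurons. It had 25.6, 33.9 and 27.8 CPM in *Adar1* E861A and 46.8, 35.1 and 31.1 CPM in wild type. Wild-type replicate 1 was the highest, and the genotypes overlapped, with *Adar1* E861A replicate 2 above wild-type replicate 3. Each *Adar1* E861A library was below the wild-type library of the same replicate number, but no source states that a number marks a pair. Means were 29.1 ± 4.30 CPM and 37.7 ± 8.12 CPM (SD, n = 3; exact permutation p = 0.2). The log2 fold change of -0.36 ± 0.13 (SE) had a 95% interval of -0.64 to -0.09 and was not called (adjusted p = 0.411). Its size rested partly on wild-type replicate 1, without which it was -0.19 (adjusted p = 0.778). Without *Adar1* E861A replicate 1 it was -0.27 (adjusted p = 0.640). Without *Adar1* E861A replicate 2 it was -0.50 (adjusted p = 0.0730), and in the fit of 23715 genes the same omission gave -0.52 and a call (adjusted p = 0.0372).

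Receptors and marker lists gave further values beside *Cxcl12*. Its scavenger receptor *Ackr3* had 5.02, 5.46 and 5.06 CPM in *Adar1* E861A and 6.58, 6.41 and 6.53 CPM in wild type. The genotypes of *Ackr3* did not overlap, a separation in this direction seen in 6.81% of the 13649 genes. Its log2 fold change of -0.32 ± 0.10 (SE) was not called (adjusted p = 0.321). *Cxcr4*, the signalling receptor, had 0.972 to 1.71 CPM in all libraries (adjusted p = 0.943). The 9 endothelial markers summed to 126, 156 and 144 CPM in *Adar1* E861A and 192, 165 and 159 CPM in wild type, and all 9 had a negative log2 fold change in the fit of 23715 genes, where *Flt1* fell by 0.38 on the log2 scale (adjusted p = 0.0381).

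Mural cells wrap the vessels. Their 6 markers summed to 103, 114 and 113 CPM in *Adar1* E861A and 153, 125 and 135 CPM in wild type. In that fit *Rgs5* fell by 0.44 on the log2 scale (adjusted p = 0.0217) and *Abcc9* fell by 0.40 (adjusted p = 0.0457). In the fit of 13649 genes none of these markers was called, with adjusted p-values of 0.0817 for *Flt1*, 0.0717 for *Rgs5* and 0.0776 for *Abcc9*. With the replicate number as a block, that fit called *Rgs5* (adjusted p = 0.0401) and *Abcc9* (adjusted p = 0.0356) but not *Flt1* (adjusted p = 0.0506). Meningeal fibroblasts build the collagen coverings of the brain. Their 6 markers summed to 127, 121 and 140 CPM in *Adar1* E861A and 104, 116 and 103 CPM in wild type. Without the block, the collagen genes *Col1a2* (log2 fold change 0.42, adjusted p = 0.0199) and *Col3a1* (0.57, adjusted p = 0.0316) rose in the fit of 13649 genes. In the other fit 5 of these 6 markers had a positive and 1 a negative log2 fold change, with a median of 0.36. The part of any of these lists in the *Cxcl12* values was not tested.

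**Figure D3:**
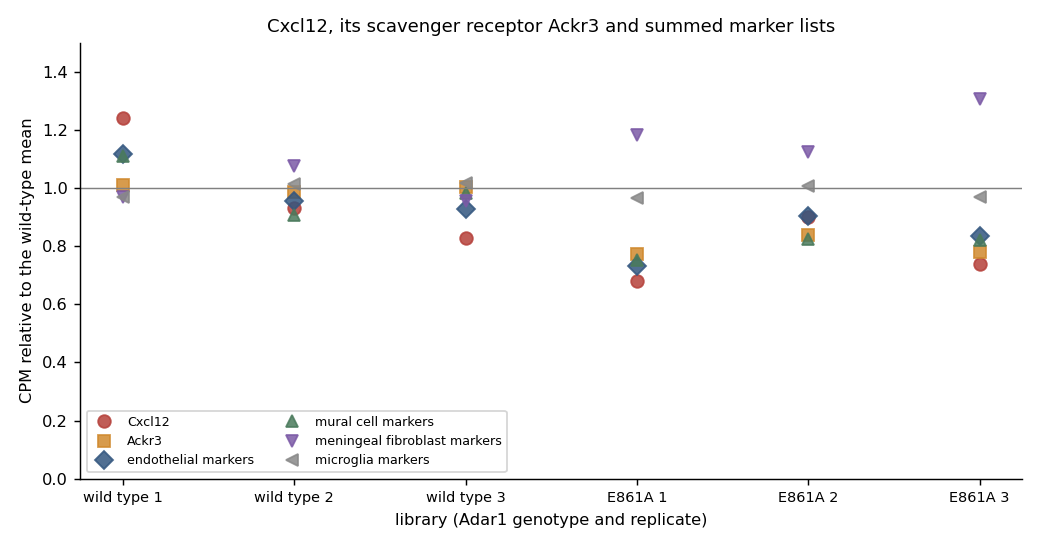
CPM of *Cxcl12*, of *Ackr3* and of 4 summed marker lists in each library, divided by the mean of the 3 wild-type libraries, on a linear axis. *Cxcl12* runs from 0.826 to 1.24 in wild type and from 0.679 to 0.899 in *Adar1* E861A, with endothelial and mural markers at 0.731 to 0.905 in *Adar1* E861A and microglia markers at 0.966 to 1.02 throughout.

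Levels of different ligands were compared as CPM per kb of exon. *Cx3cl1* was the most abundant, at a mean of 81.6 CPM per kb over the 6 libraries (range 71.8 to 86.4). *Cxcl14* followed at 20.02 (18.6 to 20.9) and *Cxcl12* at 4.08 (3.13 to 5.72). The ranges of these 3 ligands did not overlap with each other or with any below. *Ccl12* (mean 0.533, range 0.147 to 1.03), *Ccl5* (0.517, 0.288 to 1.05) and *Cxcl10* (0.230, 0 to 0.547) came next, and neighbours in this order overlapped. *Ccl11*, *Ccl2*, *Cxcl1* and *Cxcl9* had means of 0.0599, 0.0579, 0.0575 and 0.0201 CPM per kb and could not be ordered at this depth. In *Adar1* E861A the per kb levels of *Cxcl10* overlapped those of *Ccl5* and stayed below those of *Ccl12*, whereas in wild type all 3 *Cxcl10* values lay below both.

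**Figure D4:**
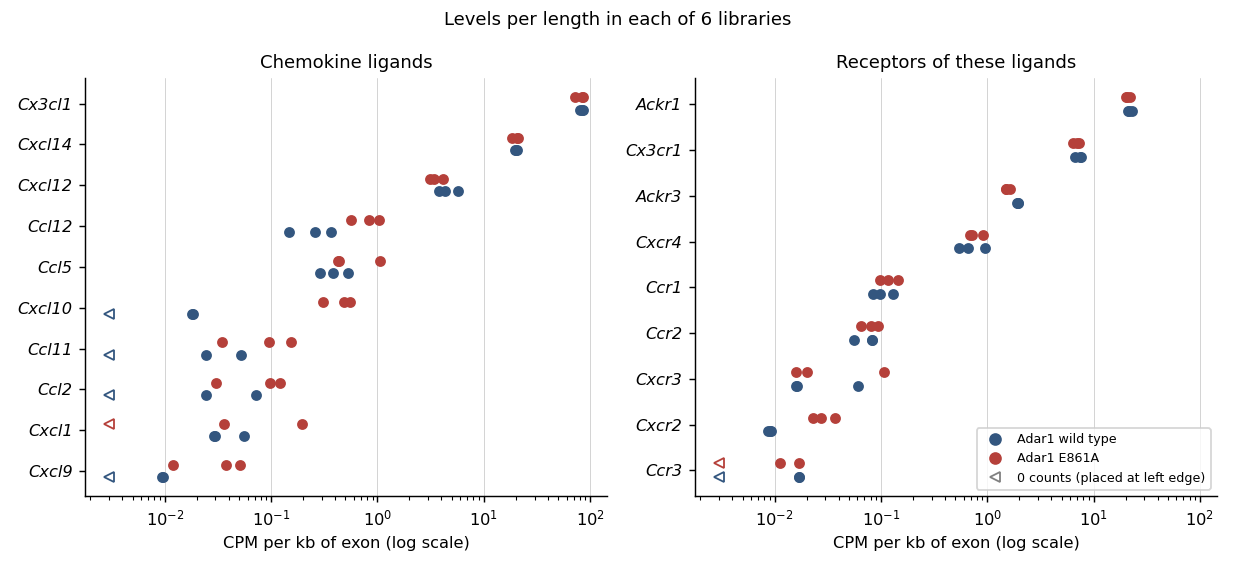
Levels of the 10 ligands (left) and of receptors that bind them (right) as CPM per kb of exon in each library, on a log axis, with open triangles at the left edge for libraries with 0 counts. *Cx3cl1*, *Cxcl14* and *Cxcl12* stand above the other ligands, and *Cx3cr1* and *Ackr1* are the most abundant receptors.

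Of the other chemokine ligands, 30 were listed and 26 matched the table. Of these 16 entered the fit of 23715 genes, where edgeR called 0, with 2 at an unadjusted p under 0.05, and 0 were called under any of the 14 alternatives. Their median log2 fold change was 0.23, against 0.00166 for all genes. *Ccl27a*, a skin chemokine with several genomic copies that can share reads, was the most abundant at 20.6 CPM over the 6 libraries (adjusted p = 0.960). *Ccl25*, known from gut and thymus, had 3.70 CPM (adjusted p = 0.988). *Cxcl16*, a membrane-bound ligand of CXCR6, had 58, 59 and 49 counts in *Adar1* E861A and 44, 46 and 47 in wild type. Its genotypes did not overlap in CPM, but the log2 fold change of 0.53 ± 0.18 (SE) was not called (adjusted p = 0.399), and 552 bases of its exons overlap *Zmynd15* on the opposite strand.

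The receptors through which these ligands act showed 0 calls. All 18 signalling receptors matched and 14 entered the fit of 23715 genes, with 0 called by edgeR or under any alternative and 0 at an unadjusted p under 0.05. Their median log2 fold change was 0.22. *Cxcr3*, the receptor of *Cxcl9* and *Cxcl10*, had 1, 1 and 5 counts in *Adar1* E861A and 1, 4 and 1 in wild type, too few to show a difference. *Ccr2*, the receptor of *Ccl2* and *Ccl12*, had 12, 22 and 14 counts against 13, 20 and 19 (adjusted p = 0.953). *Ccr1*, which binds *Ccl5* and *Ccl3*, had 8, 12 and 11 counts against 10, 9 and 13 (adjusted p = 0.929). Of 5 atypical receptors, which take up ligands without signalling, 0 were called and 1 (*Ackr3*) had an unadjusted p under 0.05. *Ackr1*, a promiscuous scavenger, had 24.7 CPM with an adjusted p of 0.786. Of 6 chemokine proteases 0 were called, with *Dpp4*, which trims CXCL10 and CXCL12, at an unadjusted p under 0.05 (log2 fold change 0.35 ± 0.12 SE, adjusted p = 0.395).

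Upstream, the transcripts of inducing cytokines were rare and the inducing factor *Irf7* rose. Of 11 cytokines, *Ifnb1*, *Ifng*, *Ifnl2*, *Ifnl3* and *Il17a* had 0 counts in every library, which allows at most 0.0788 to 0.112 CPM per library at a floor of 3 counts. Only 3 entered the fit of 23715 genes, with 0 called, 0 at an unadjusted p under 0.05 and 0 called under any alternative. The interferon gene *Ifnk* was the most abundant of the list, at a mean of 0.484 CPM over the 6 libraries. It had 10, 16 and 24 counts in *Adar1* E861A and 21, 16 and 8 in wild type (adjusted p = 0.852). Interferon alpha genes were not in the list. *Il1b* had 5, 11 and 6 counts against 5, 4 and 6 (adjusted p = 0.744). *Irf7*, itself an interferon-induced activator of ISRE sites, passed the test in both fits. It had 2.94, 3.31 and 3.84 CPM against 1.91, 0.762 and 1.57 CPM (log2 fold change 1.26 ± 0.23 SE, adjusted p = 0.0225). In the fit of 13649 genes the *Irf7* call was lost without *Adar1* E861A replicate 3 (log2 fold change 1.15, adjusted p = 0.324). The call was also lost without wild-type replicate 3 (1.34, adjusted p = 0.0862). Its log2 fold change was little altered by these omissions. It was 0.96 without wild-type replicate 2 and 1.53 without wild-type replicate 1, with the call kept in both. *Irf7* was higher in all 3 *Adar1* E861A libraries, as was *Cxcl10*. For the NF-kB subunits that act on the inflammatory ligands, *Nfkb1*, *Rela*, *Relb* and *Nfkb2*, adjusted p-values were 0.879, 0.860, 0.735 and 0.582.

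Markers of cells that could carry chemokine RNA were read beside *Cxcl10*. Of 16 T and NK cell markers 10 entered the fit of 23715 genes, with 0 called by edgeR and 1 at an unadjusted p under 0.05, and they summed to 7.08 to 7.62 CPM in *Adar1* E861A and 6.27 to 7.41 CPM in wild type. Each of the 16 was detected in at least 1 library. Much of this sum was *Cd4*, at a mean of 3.60 CPM over the 6 libraries. Of the 10 tested, 7 had a positive and 3 a negative log2 fold change. *Cd3e*, a subunit of the T cell receptor complex, had 6, 2 and 7 counts in *Adar1* E861A and 6, 1 and 5 in wild type (adjusted p = 0.882). *Trac*, a T cell receptor gene, had 16, 20 and 25 counts against 17, 20 and 7, without overlap in CPM (adjusted p = 0.661). *Cd8b1*, the marker with an unadjusted p under 0.05, had 5, 4 and 2 counts against 1, 1 and 1, without overlap (adjusted p = 0.492). The 7 astrocyte markers summed to 5187, 5404 and 5173 CPM in *Adar1* E861A and 4545, 4738 and 4769 CPM in wild type, without overlap (exact permutation p = 0.1). Of these markers 0 were called by edgeR, with 1 at an unadjusted p under 0.05 and 1 called with the replicate block. Only 1 marker was itself separated upward. In the fit of 23715 genes 6 were positive and 1 negative, with a median log2 fold change of 0.011, so the sum does not describe the list as a whole. Their part in the *Cxcl10* counts was not tested. Of 4 B cell markers and 5 monocyte markers 0 were called, with 1 of each at an unadjusted p under 0.05. The 4 B cell and 4 monocyte markers in the fit of 23715 genes all had a positive log2 fold change (medians 0.48 and 0.65). The summed level of each list overlapped between genotypes. Brain identity was clear in each library, with neuronal markers at 5686 to 5819 CPM and oligodendrocyte markers at 4253 to 4617 CPM.

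**Figure D5:**
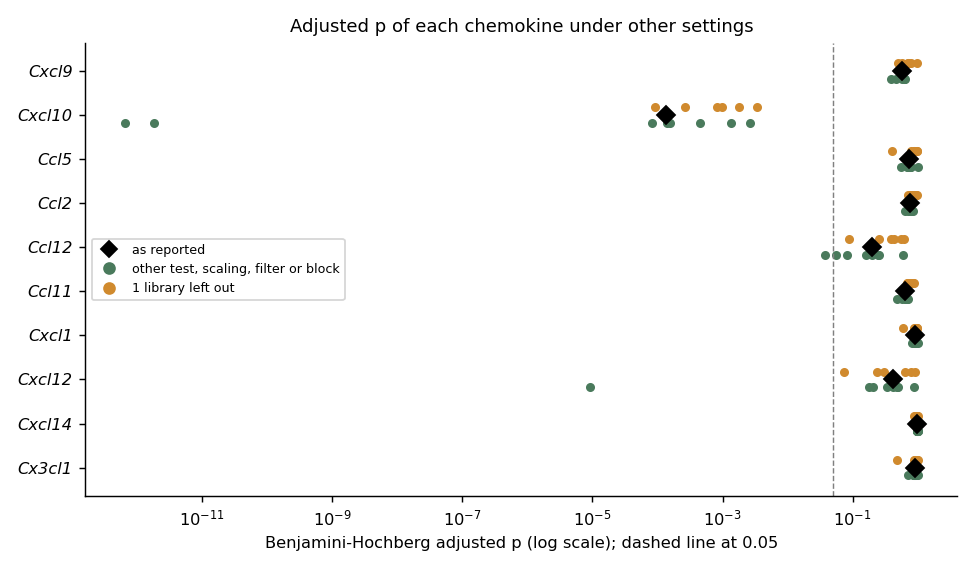
Adjusted p (log axis) of each ligand as reported (black diamonds), under other tests, scalings, filters or the replicate block (green) and with 1 library left out (orange), with a dashed line at 0.05. All points of *Cxcl10* lie left of the line, *Ccl12* crosses it under the likelihood ratio test and *Cxcl12* crosses it when no filter is used.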

How the data were processed

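RNA was sequenced from ribosome-depleted, strand-specific libraries of whole brain. The authors trimmed reads with Trimmomatic 0.36, aligned them to mm9 (NCBIM37) with STAR 2.5.2a and deposited a table of raw gene counts, a column for each library. The strand column taken from the aligner was not given in the sources used here, so counts of overlapping genes on opposite strands are uncertain. The deposited CPM tables and the authors' table of their own comparison (log2 fold changes and false discovery rates) were not used. No molecular identifiers were added, so intervals and the floor of 3 counts cover counting error only.

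CPM was computed from column totals. The genotypes were tested on the counts with edgeR 4.0.16 under R 4.3.3 (TMM scaling, quasi-likelihood test, Benjamini-Hochberg adjustment at 0.05), without covariates, after either filter described in the results. The standard error is the absolute log2 fold change over the square root of F. DESeq2 1.42.0, limma 3.58.1 (voom), other scalings and filters, the likelihood ratio test, a block on the replicate number, and fits that left out a library each served as alternatives. Both fits were tested on simulated data. All 37310 gene identifiers matched GENCODE vM1, the source of positions and exon lengths, and promoter sequences came from RefSeq (GRCm38.p6). The labels give both genotypes the same replicate numbers, but no source states that a number marks a pair. Deviations of same-numbered libraries from the genotype means correlated over genes with r of 0.225, 0.336 and 0.116. For libraries of different number r was -0.259 to 0.0505. These correlations come from the same data and do not establish a pairing, so the number served as a block among the alternatives only. The ligands, gene lists and filters were chosen with earlier results of these data known. Some genes of these lists are not reported here. Named genes are all ligands, genes called in either fit, and the 3 most abundant members of most companion lists, with any others named for their position, receptor role or values after these were seen.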

Additional observations from a re-analysis of the deposited data

How the results depend on the processing

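Each result was recomputed under 14 alternatives, with the levels also recomputed from TMM-scaled libraries. *Cxcl10* was called in each of them, with a log2 fold change of 4.42 to 5.28. The block on the replicate number raised the genes called from 69 to 158 (103 higher, 55 lower) in the fit of 13649 genes. In the fit of 23715 genes it raised them from 109 to 287 (175 higher, 112 lower). The block changed the call of no ligand. The likelihood ratio test called 139 (90 higher, 49 lower) and 211 (141 higher, 70 lower) genes, no filter called 376 (218 higher, 158 lower), and filterByExpr in place of the first filter called 110. With 1 library left out, the calls ranged from 42 to 111 and from 66 to 189, lowest without *Adar1* E861A replicate 3 and highest without *Adar1* E861A replicate 2.

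Of the ligands, 2 were called by the likelihood ratio test, with *Ccl12* added, and 2 with no filter, with *Cxcl12* added (adjusted p = 9.07e-06, log2 fold change -0.37). That fit had infinite prior degrees of freedom, and the spread of *Cxcl12* itself was not used. In the fit of 13649 genes, no filter gave 1 called ligand and leaving out a library gave 0. In the fit of 23715 genes, leaving out a library gave 1 to 2. Directions reversed for uncalled ligands only, namely *Cxcl1* under limma-voom (-0.0116) and with 1 library left out (-1.08 to 1.46), *Cxcl14* with no filter (-0.00043) and with 1 library left out (-0.0308 to 0.0553), and *Cx3cl1* with 1 library left out (-0.0993 to 0.0339). The causes were not tested. The rare ligands *Ccl2*, *Cxcl1*, *Ccl11* and *Cxcl9* had 10 to 13 counts over all libraries and were not called. Whether greater depth would resolve a difference in them was not tested.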

Other observations

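*Ttr*, which encodes transthyretin and is highly expressed in choroid plexus, the tissue where leukocytes can enter the cerebrospinal fluid, fell by 0.52 on the log2 scale in *Adar1* E861A in the fit of 23715 genes (adjusted p = 0.0443). In the fit of 13649 genes it was not called (adjusted p = 0.124), except with the replicate number as a block (adjusted p = 0.0241). It was the 1 called member of 7 choroid plexus markers, of which 4 had a negative and 3 a positive log2 fold change in the fit of 23715 genes, with a median of -0.11. It had 183, 274 and 286 CPM in *Adar1* E861A and 365, 341 and 359 CPM in wild type, without overlap. The library with the pituitary transcripts had the lowest value. *Col1a1*, a further collagen gene of the meningeal fibroblast list, had 25.3, 18.6 and 28.0 CPM against 12.5, 18.4 and 11.2 CPM, and was called in the fit of 23715 genes (log2 fold change 0.75, adjusted p = 0.0254) but not in the other (adjusted p = 0.0804).

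Further interferon-responsive factors that act on chemokine genes were separated between genotypes and not called without a block. *Irf9*, the DNA-binding part of the ISGF3 complex, had 12.1, 10.1 and 11.5 CPM in *Adar1* E861A and 10.03, 7.56 and 8.40 CPM in wild type (log2 fold change 0.37 ± 0.10 SE, adjusted p = 0.238), and it was called with the replicate number as a block (adjusted p = 0.0466). *Stat2*, its partner, had 30.4, 23.5 and 25.1 CPM against 23.4, 21.2 and 22.1 CPM (log2 fold change 0.24 ± 0.08 SE, adjusted p = 0.345, or 0.0710 with the block). Over the 13649 genes tested, 6.98% were separated in this direction.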
